A study of Mus musculus with 32 samples.

Results

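Kidneys of mice lacking the microRNA miR-155 were compared with wild type kidneys 48 h after cisplatin. The samples were chosen by their titles alone, as the 4 miR-155-/- and the 4 wild type animals taken at 48 h, which makes 8 of the 32 arrays of the series. All 8 mice were male, 12 to 16 weeks old, and had received 1 injection of 20 mg/kg cisplatin. The wild type mice were C57BL/6 from Charles River, and the miR-155-/- mice were the line B6.Cg-Mir155tm1.1Rsky/J, which came from the Jackson Laboratory. The deletion is carried by every cell of the animal, and the supplier differs between the genotypes, so the deletion and the origin of the mice cannot be told apart in this design. RNA of whole homogenised kidney was hybridised to 1-colour Agilent mouse arrays, 1 animal per array. The other arrays used here are the groups of 4 animals of the same genotypes killed at 24 and 72 h after cisplatin, and saline-injected mice that stand for 0 h.

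A microRNA is loaded into an Argonaute protein and pairs through its seed, the bases near its 5′ end, with sites in messenger RNAs, which are then translated less and degraded. miR-155 is cut from the transcript of its host gene, is induced in activated macrophages and lymphocytes, and is known for repressing Socs1, Inpp5d (the lipid phosphatase SHIP1), Bach1 and Cebpb. Cisplatin enters the proximal tubule, where its DNA adducts activate p53 and kill the cells over the following days, so that injury proteins rise and transporters are lost.

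The sequence that is missing from the miR-155-/- mice is shown first, since it decides which messenger RNAs could respond directly. The arms of the mouse hairpin, from RefSeq on GRCm38.p6, lie at chr16:84714143-84714165 (5p arm) and chr16:84714182-84714202 (3p arm), both on the plus strand. Capitals mark the seed, bases 2 to 8.
mmu-miR-155-5p: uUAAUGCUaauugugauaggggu
mmu-miR-155-3p: cUCCUACCuguuagcauuaac
No probe on the array carried the symbol Mir155 or Mir155hg, so the deletion itself could not be checked on these arrays. Of the 30 genes nearest to Mir155 in the RefSeq order, 15 on each side, 6 were tested and 0 were called by limma (1 at an unadjusted p under 0.05, the precursor protein gene App). Their median log2 difference was -0.09, with App at -0.29 ± 0.12, the nuclear factor Gabpa at -0.09 and the junction protein gene Jam2 at 0.10.

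Levels are given as log2 of the processed signal minus the 75th percentile of the array, so that 0 is the brightness of the probe at that percentile and a step of 1 is 2-fold. Differences are miR-155-/- minus wild type, and ± is the standard error of the limma fit. A gene was called at a Benjamini-Hochberg adjusted p under 0.05 among 23759 genes and transcripts, of which 16470 had a symbol. The 75th percentile was 1892.5 to 2542.5 in intensity units over the 8 arrays, 69.2% to 81.8% of the probes were well above background, and 0 spots were saturated. Both groups showed the cisplatin response: against saline of the same genotype, the cell cycle inhibitor Cdkn1a stood 4.61 higher in wild type and 5.51 higher in miR-155-/- on the log2 scale, and the tubular injury gene Havcr1 (Kim-1) 5.32 and 5.51 higher. Tubule genes were bright on the arrays, with the mean over 26 proximal tubule genes at 3.57 to 4.38 in wild type and 3.97 to 4.06 in miR-155-/- replicates 1, 2 and 4.

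miR-155-/- replicate 3 stood apart and is therefore left out in a repeat of the fit. For some genes named below the difference is given with all 8 arrays only. In 27.4% of all genes its level lay 2-fold or more from the mean of the other 3 miR-155-/- arrays, against 1.64% to 6.63% for the other 7 arrays within their own groups. Its correlation with that mean was 0.9626, against 0.9907 to 0.9962, and it lay outside the range of all 7 other arrays in 35.2% of genes above and 37.3% below. In replicate 3 the haemoglobin gene Hba-a1 read 4.69 against a mean of -1.76 in the other miR-155-/- arrays, the injury gene Lcn2 (NGAL) 5.42 against 2.30, and the cell cycle inhibitor Cdkn1a 4.54, while Havcr1 read 0.12 against 2.92. Below the other 7 arrays were 18 of 26 proximal tubule genes, 16 of 22 distal nephron genes, 11 of 14 macrophage markers and 10 of 13 lymphocyte markers. Above them were 16 of 17 AP-1 and immediate early genes, 15 of 21 S phase and mitosis genes, 7 of 9 red blood cell genes and 6 of 8 neutrophil markers. The sodium-coupled monocarboxylate transporter Slc5a12 read -0.46 against 4.24, the potassium channel Kcnj1 of the thick limb 0.90 against 4.03, the macrophage receptor Cx3cr1 -5.88 against -1.50 and the T cell receptor subunit gene Cd3g -9.11.

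**Figure D1:**
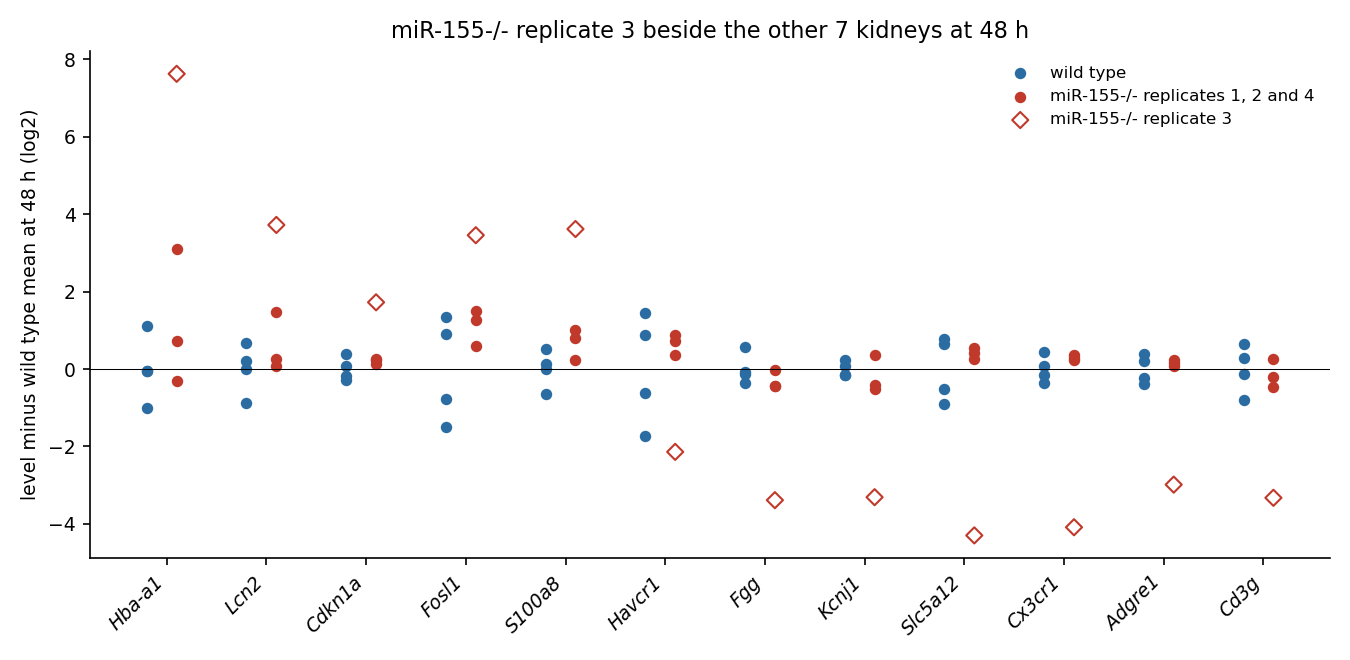
Levels of 12 marker genes in each 48 h kidney, as log2 difference from the wild type mean of that gene; dots are wild type (left) and miR-155-/- replicates 1, 2 and 4 (right), and the open diamond is miR-155-/- replicate 3. The diamond lies above all other arrays for Hba-a1, Lcn2, Cdkn1a, Fosl1 and S100a8 and below them for Havcr1, Fgg, Kcnj1, Slc5a12, Cx3cr1, Adgre1 and Cd3g.

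At 48 h, 22 genes and transcripts were higher and 2 were lower in miR-155-/- kidney, which is 0.101% of those tested (0.0926% higher and 0.00842% lower). The unadjusted p was under 0.05 for 3599 (15.1%). Of the 24 called, 14 had a symbol, 13 of them higher, and 21 differed by at least 2-fold. The groups did not overlap in 23 of the 24, against 4.47% of all genes, on the arrays that also made the call. The 13 named higher genes, among them 4 Speer genes, Pi4k2b, Tmem254a, Plac9a and Fam205a2, read 3.18 to 18.7 times higher in miR-155-/-, with Entpd4 at 1.72 times as the exception. Tmigd1 was the named gene that fell. In a bulk sample, fewer cells of a type and less RNA per cell cannot be told apart.

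Without replicate 3, 33 were called (0.139%), 32 higher (0.135%) and 1 lower (0.00421%), and 747 (3.14%) had an unadjusted p under 0.05. Of these 33, 20 were among the 24. Those that dropped out were Tmigd1 and 3 transcripts without a symbol, and of the 13 that came in, 4 had a symbol. The median difference over all genes was -0.03 with all 8 arrays and -0.01 without replicate 3.

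**Figure D2:**
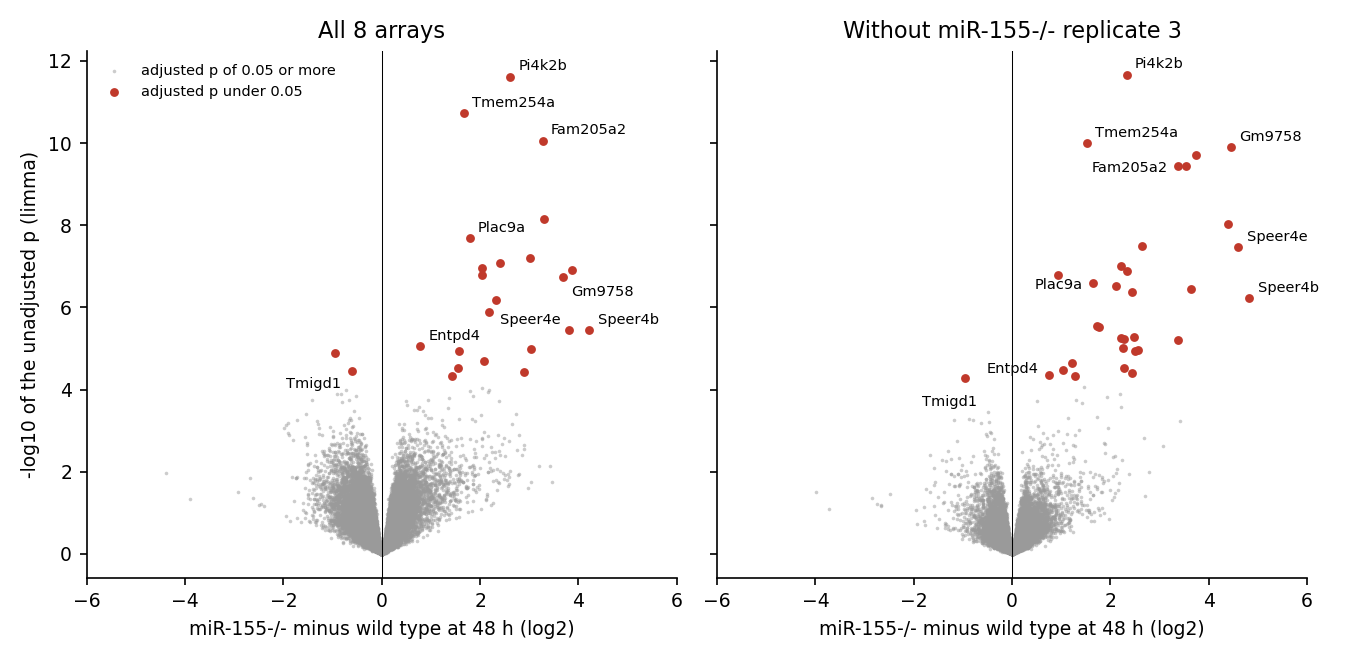
Each point is 1 of the 23759 genes or transcripts, placed by its log2 difference at 48 h (horizontal) and the -log10 of its unadjusted limma p (vertical), with all 8 arrays on the left and without miR-155-/- replicate 3 on the right. Called genes lie almost all on the right of 0, 22 of 24 with all arrays and 32 of 33 without replicate 3.

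Pi4k2b, a lipid kinase that makes phosphatidylinositol 4-phosphate on endosomes, had the smallest p. Its level was -1.58, -1.86, -2.03 and -1.82 in wild type replicates 1 to 4 and 1.06, 0.14, 1.65 and 0.34 in miR-155-/- replicates 1 to 4. The groups did not overlap, and replicate 3 was the highest of all. The difference was 2.62 ± 0.22, or 6.13-fold (limma adjusted p = 5.7e-08), and 2.33 ± 0.19 without replicate 3.

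Tmem254a, a gene for a small membrane protein, read -0.12, -0.11, 0.40 and 0.26 in wild type and 1.38, 1.87, 2.22 and 1.64 in miR-155-/-. All 4 miR-155-/- kidneys lay above all 4 wild type ones, by 1.67 ± 0.15 on average (3.18-fold, limma adjusted p = 2.26e-07). Plac9a, its neighbour in the gene order, read -1.0, -1.49, -1.71 and -1.24 in wild type and -0.22, 0.73, 0.82 and 0.36 in miR-155-/-. Again no value overlapped, and the difference was 1.78 ± 0.23 (3.44-fold, limma adjusted p = 9.73e-05).

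Fam205a2 and Gm3893 are neighbours too. Fam205a2 was dim in wild type, at -5.81, -5.59, -6.20 and -5.30, and read -2.32, -2.65, -2.75 and -2.10 in miR-155-/-. Replicate 3 lay with its group here, and the groups were 3.27 ± 0.32 apart (9.65-fold, limma adjusted p = 6.89e-07). Of 3 other probes for this gene, 1 differed by 3.0, 1 by 0.88 and 1 by -0.42, so its probes disagree, and their mean differed by 1.68 and was called. Gm3893 read -6.11, -5.64, -6.54 and -5.70 in wild type and -3.39, -4.38, -3.31 and -3.59 in miR-155-/-, a difference of 2.33 ± 0.36 (5.02-fold) with no overlap, and 1.25 on its other probe.

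Entpd4, a nucleotide-hydrolysing enzyme of the Golgi and lysosome, read 3.47, 3.35, 3.82 and 3.72 in wild type and 4.45, 4.12, 4.44 and 4.47 in miR-155-/-. No value overlapped, with miR-155-/- replicate 2 the lowest of its group, and the difference was 0.78 ± 0.14 (1.72-fold, limma adjusted p = 0.013). Its other probe differed by 0.92. Entpd4 belongs to a list of 7 genes that are reported to differ between the substrains C57BL/6J and C57BL/6N, of which 5 were tested. Wdfy1 of that list was 2.43-fold lower in miR-155-/- without overlap (-1.28 ± 0.34) and was not called (limma adjusted p = 0.254), and Ide differed by 0.56, Cyfip2 by -0.70 and Nlrp12 by -0.32. Of the 5 tested, 2 lay above 0 and 3 below. The unadjusted limma p was under 0.05 for 4 of them (80%), beside 15.1% of all genes. Without replicate 3 it was so for 3 (60%), beside 3.14%. The gene Nnt, the best known difference between these substrains, had no probe with its symbol, and whether a substrain difference has a part in these results was not tested.

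Tmigd1, an adhesion molecule of the brush border of kidney and gut epithelium, was lower in miR-155-/-. Its level was 4.46, 4.51, 4.64 and 4.58 in wild type and 4.06, 4.04, 3.58 and 4.07 in miR-155-/-. The 4 wild type values lay within a narrow band above all miR-155-/- values, and replicate 3 was the lowest. The difference was -0.61 ± 0.12, 1.52-fold lower (limma adjusted p = 0.0385), and without replicate 3 it was -0.49 ± 0.12 and no longer called (limma adjusted p = 0.205). Tmigd1 also failed to pass in other settings, 16 of 27 in all. The other lower transcript, with the accession FJ654103 and no symbol, differed by -0.96 ± 0.18 with all arrays and by -0.95 without replicate 3, and was called both times.

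**Figure D3:**
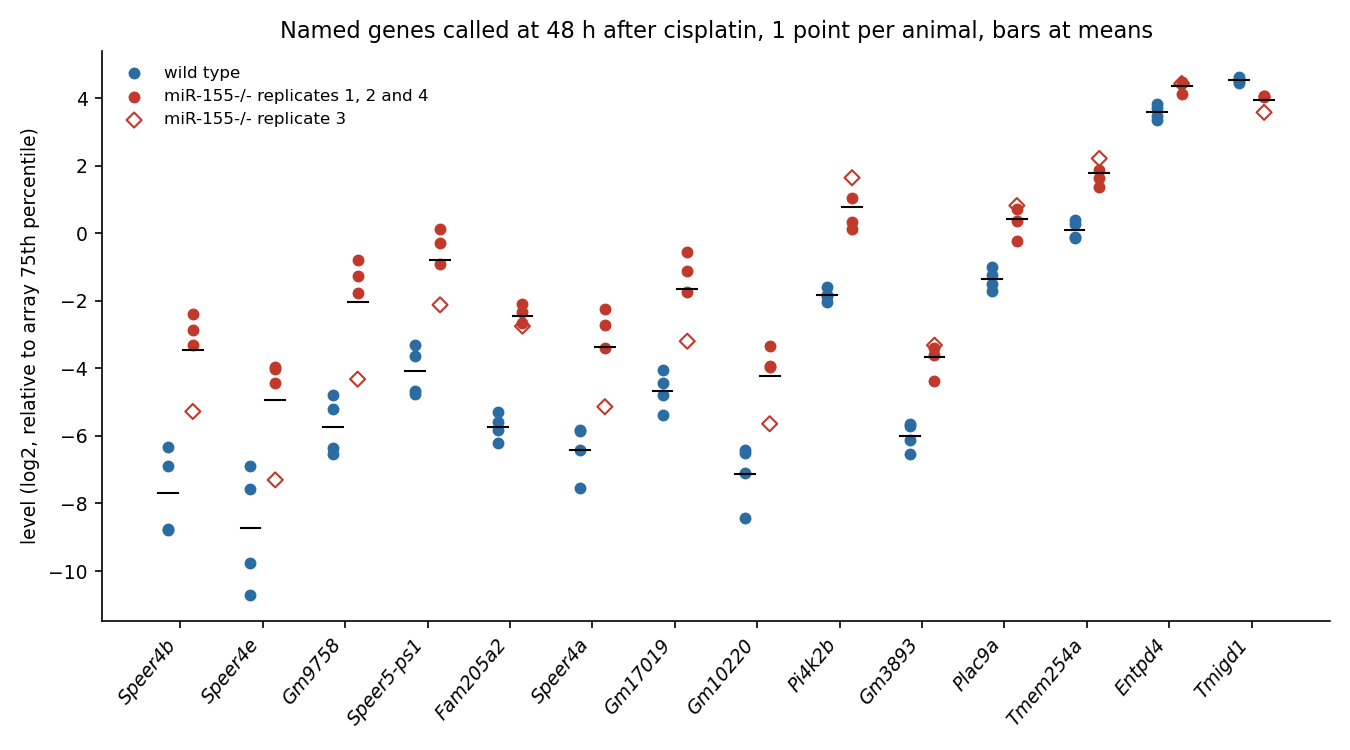
Level of the 14 named genes called at 48 h in each kidney (log2, relative to the 75th percentile of the array), with wild type on the left and miR-155-/- on the right of each gene, the open diamond for miR-155-/- replicate 3 and bars at the group means. Groups overlap for Speer4e alone, where replicate 3 lies below the highest wild type kidney.

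The Speer genes encode glutamate-rich proteins known from the testis and lie in many near-identical copies. Of 13 on the array 11 were tested and 4 were called, Speer4a, Speer4b, Speer4e and Speer5-ps1, against 0.0926% of all genes called higher. Gm9758, Gm17019 and Gm10220, which lie beside Speer4 genes in the gene order, were called with them. The count takes near-identical copies as separate genes. At 48 h Speer4a, Speer4b and Speer4e were well above background on all 4 arrays in miR-155-/- only, the group where they read higher. A pair of the copies is set side by side because one was called and the other was not: the 250 bases before the start of Speer4e, at chr5:14938476-14938725 on the minus strand, and those before Speer4d, at chr5:15618849-15619098 on the plus strand, both from RefSeq on GRCm38.p6. Capitals mark the longest run of bases they share, 68 bases.
Speer4e: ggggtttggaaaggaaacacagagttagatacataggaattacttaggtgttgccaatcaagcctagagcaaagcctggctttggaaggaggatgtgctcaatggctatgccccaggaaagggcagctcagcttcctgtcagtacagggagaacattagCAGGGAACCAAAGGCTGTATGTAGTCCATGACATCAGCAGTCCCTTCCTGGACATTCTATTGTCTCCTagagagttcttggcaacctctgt
Speer4d: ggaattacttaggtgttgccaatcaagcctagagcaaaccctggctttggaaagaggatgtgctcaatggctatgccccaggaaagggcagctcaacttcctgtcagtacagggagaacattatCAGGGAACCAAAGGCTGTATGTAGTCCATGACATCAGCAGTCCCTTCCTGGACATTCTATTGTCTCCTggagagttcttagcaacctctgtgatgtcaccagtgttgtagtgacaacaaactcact
The same run stood in 7 of 27025 such windows (0.0259%), those of Speer4e, Speer4d, Gm9758, Gm17019, Gm21083, Gm21149 and Gm21190. Among the 6 called genes of this family with a window, pairs of windows were 95.6% to 97.9% identical over their aligned bases. With that of Speer4d they were 95.8% to 97.8% identical in the same way. Gaps and overhanging ends were not counted, so that 215 of the 250 bases were compared for Speer4e and Speer4d. These windows lie before the gene starts and are not what the probes read, and no probe or transcript sequences were at hand. Whether a probe reads transcripts of more than 1 copy was not tested, so the gene behind each value below is uncertain.

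Speer4e rose from -6.90, -7.58, -9.77 and -10.71 in wild type, where its probe was well above background on 2 of 4 arrays, to -4.03, -3.95, -7.30 and -4.45 in miR-155-/-. Replicate 3 was the only miR-155-/- kidney within the wild type range. The difference was 3.81 ± 0.66 (14.0-fold, limma adjusted p = 0.00574), and 4.60 without replicate 3 (24.2-fold). Speer4b read -6.32, -6.89, -8.75 and -8.79 in wild type, well above background on 2 of 4 arrays, and -3.32, -2.40, -5.28 and -2.87 in miR-155-/-. The difference was 4.22 ± 0.73 (18.7-fold, limma adjusted p = 0.00574), and 28.4-fold without replicate 3. A second probe of Speer4b, well above background on 3 of 4 wild type and 4 of 4 miR-155-/- arrays, differed by 0.28, so its probes disagree, and their mean differed by 2.25. With 2 of 4 wild type arrays not well above background for the probes used, the sizes of the Speer4b and Speer4e folds are uncertain. With normexp background correction Speer4e differed by 2.26 and was not called.

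Speer5-ps1, a pseudogene of the family, read -3.30, -3.62, -4.68 and -4.75 in wild type and -0.90, 0.14, -2.12 and -0.28 in miR-155-/-, with no overlap and a difference of 3.30 ± 0.40 (9.84-fold, limma adjusted p = 4.16e-05). Its other probes differed by 3.45 and 3.0. Speer4a differed by 3.04 ± 0.57 (8.22-fold), Gm10220 by 2.90 ± 0.59 (7.46-fold), Gm17019 by 3.02 ± 0.41 (8.1-fold) and Gm9758 by 3.69 ± 0.54 (12.9-fold). The 3 further probes of Gm17019 differed by 3.0 to 3.36. A second probe of Gm10220, well above background on 3 of 4 wild type and 4 of 4 miR-155-/- arrays, differed by 0.20, and the mean of both probes by 1.55, which was not called. In these 4 Speer genes and 3 neighbours miR-155-/- replicate 3 was the lowest miR-155-/- kidney, and without it the differences were larger, up to 4.83 for Speer4b.

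The other 7 tested members of the family were not called. Speer4d read -3.35, -3.77, -4.43 and -4.30 in wild type and -3.39, -4.13, -4.27 and -4.24 in miR-155-/-, which overlap throughout, and differed by -0.05 ± 0.30 (limma adjusted p = 0.943). Speer4f1 differed by 0.47 and Speer8-ps1 by -0.39. In Speer1, Speer2, Speer3 and Speer6-ps1 the differences were 1.31, 2.59, 2.12 and 2.50 and none was called (limma adjusted p of 0.277 to 0.306). In Speer2 and Speer3 the groups did not overlap. In these 4 replicate 3 was the highest array, at -1.78, -2.36, -3.73 and -3.24.

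Several called genes stood beside each other in the genome. Of the 18 named genes called with or without replicate 3, 12 had another of them within 5 tested genes on either side in the RefSeq order, against 0.783% of 16471 genes. These were Gm9758, Speer4e and Gm17019, then Speer4a, Gm10220 and Speer4b, and the pairs Fam205a2 and Gm3893, Plac9a and Tmem254a, and AY358078 and Gm5622. This count was made after their values were seen, and copies that share sequence count in it. Uncalled neighbours lay on both sides of 0: of the 10 tested neighbours of Pi4k2b 3 were above 0, with a range from -0.74 to 1.35, and of those of Entpd4 6, from -0.44 to 1.17.

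The 4 named genes that came in without replicate 3, named here after their values were seen, were Zfp932, Cd209a, AY358078 and Gm5622, and in each of them replicate 3 was the lowest miR-155-/- kidney. Zfp932, a zinc finger gene, lay between -1.27 and -1.0 in wild type and read -0.23, -0.24, -1.62 and -0.20 in miR-155-/-. Without replicate 3 it was 0.94 ± 0.13 higher (1.91-fold, limma adjusted p = 0.000321), and replicate 3 lay below every wild type kidney. Cd209a, a C-type lectin of dendritic cells and macrophages, lay between -5.61 and -4.64 in wild type, and read -3.97, -4.17 and -3.99 in replicates 1, 2 and 4 and -6.66 in replicate 3 (1.29 ± 0.27 without it, limma adjusted p = 0.0344). In Cd209a too, replicate 3 lay below every wild type kidney. AY358078 and Gm5622 were higher by 2.28 and 2.45 without replicate 3, and there replicate 3 lay within the wild type range.

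The same differences were then read in the animals of the other times. Of the 24 genes and transcripts called at 48 h, 23 had the same sign in saline-injected mice, 24 at 24 h and 24 at 72 h, and 13, 12 and 22 were called there, against 0.114%, 0.08% and 0.72% of all tested. Called at all 3 other times were 11, of which 9 had a symbol: Pi4k2b, Tmem254a, Plac9a, Fam205a2, Entpd4, Speer5-ps1, Speer4e, Gm9758 and Gm17019. These groups hold other animals than the 48 h groups, though the fit shares 1 estimate of the spread. For Pi4k2b the difference was 1.95 in saline, 2.04 at 24 h, 2.62 at 48 h and 2.44 at 72 h, and for Tmem254a it was 1.49, 1.26, 1.67 and 1.49. For Speer5-ps1 it was 3.17, 3.01, 3.30 and 2.91. Fam205a2 went from 2.28 in saline to 4.30 at 72 h. Entpd4 differed by 0.69, 1.16, 0.78 and 0.75.

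Tmigd1 differed by -0.03 in saline, -0.17 at 24 h, -0.61 at 48 h and -0.66 at 72 h, and was called at 48 and 72 h. Its mean level in wild type went from 4.32 in saline to 4.55 at 48 h, and in miR-155-/- from 4.29 to 3.94. Its genotype difference at 48 h minus that in saline was -0.58 ± 0.17, which did not pass (limma adjusted p = 0.565). Speer4b and the transcript AK045786 were called at none of the other times, with Speer4b at 3.06, 3.43 and 2.62 and limma adjusted p of 0.0811 to 0.141, and AK045786 was the 1 that had the opposite sign in saline.

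Whether the genotype difference itself was another at 48 h than at other times was tested over all genes. By limma 0 genes passed against saline (1702 at an unadjusted p under 0.05, 7.16%), 0 against 24 h (975, 4.1%) and 0 against 72 h (508, 2.14%), and 0 in each without replicate 3 (804, 1308 and 466 unadjusted, or 3.38%, 5.51% and 1.96%). With the slide as a block 6 passed against saline, among them Dppa3, Psd4 and Dnaaf3, and 1 or 2 passed when wild type replicate 1 (S100a4) or miR-155-/- replicate 2 (Id1 and Lmnb1) was left out.

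**Figure D4:**
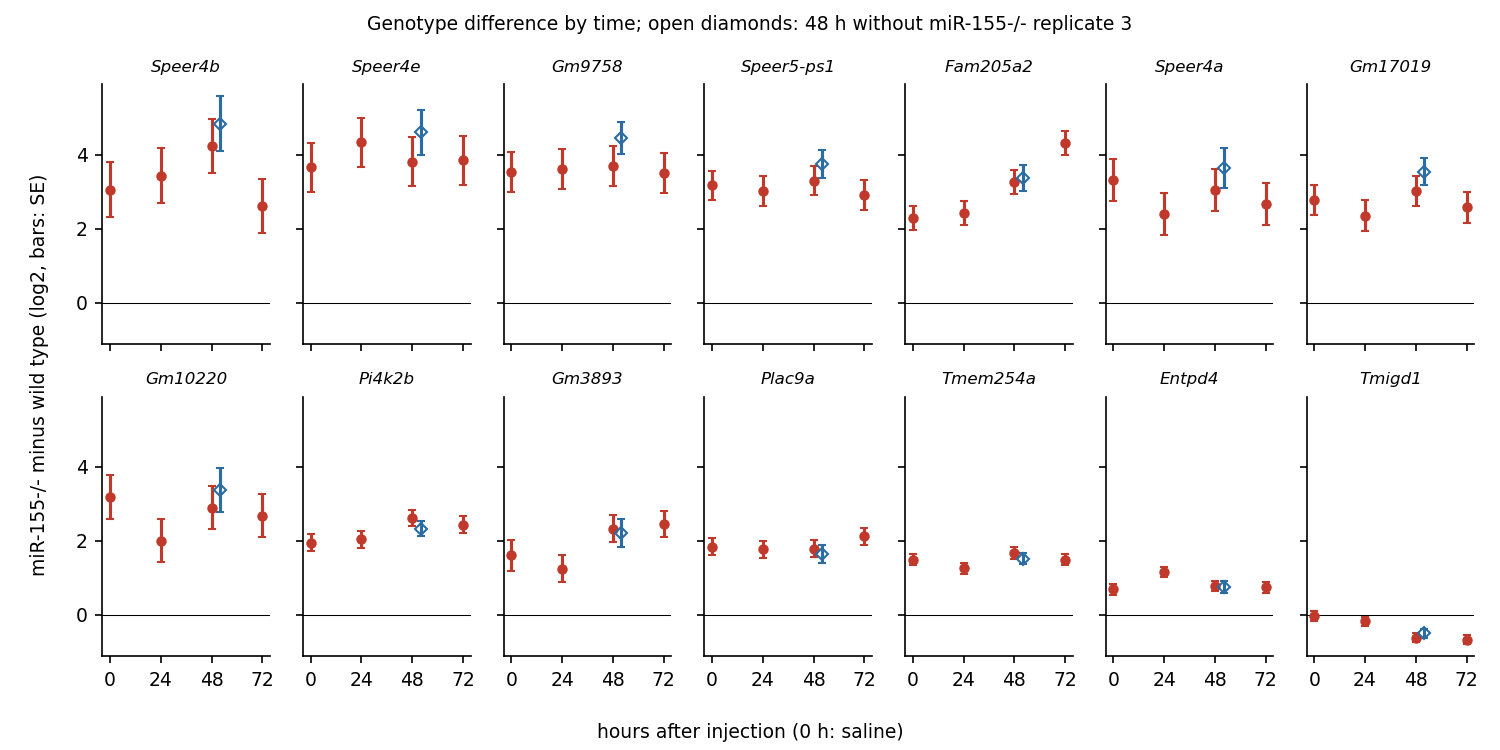
Genotype difference (log2, bars are the standard error) of the 14 named genes in saline (0 h) and at 24, 48 and 72 h after cisplatin, with 4 animals per group; the open diamond beside 48 h leaves out miR-155-/- replicate 3. In 13 genes the difference lies above 0 at all 4 times, and in Tmigd1 it is near 0 in saline and at 24 h and below 0 at 48 and 72 h.

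The 48 h arrays lay on several slides, and 2 slides held an array of each genotype. One held miR-155-/- replicate 4 and wild type replicate 3, and the other miR-155-/- replicate 2 and wild type replicate 4. These arrays also made the calls, and without overlap the sign within a slide is fixed, so sizes alone are given. Pi4k2b differed by 2.36 and 1.95 within these slides, Fam205a2 by 4.10 and 2.65, and Tmigd1 by -0.57 and -0.54. With the slide as a fixed block 68 were called higher and 3 lower, 23 of the 24 among them, and with array weights, where replicate 3 had a weight of 0.0666 against 0.633 to 2.61, 96 and 41. Fitted on the 8 arrays of 48 h alone, limma called 1 gene, Fam205a2, and without replicate 3 it called 7, Fam205a2, Gm17019, Gm9758, Pi4k2b, Speer5-ps1, Tmem254a and Zfp932. Leaving out wild type replicate 3 lowered the number called higher to 14, and the number called lower moved between 0 and 12 when each array was left out in turn, with 12 without miR-155-/- replicate 2.

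Gene lists were then described by their counts and medians. Outside the substrain list 0 members of any list were called by limma, with or without replicate 3, and for each list the number at an unadjusted p under 0.05 is read beside 15.1% of all genes with all 8 arrays and 3.14% without replicate 3. Beside the numbers of members above 0, 46.4% of all genes tested lay above 0, and 47.6% without replicate 3. Beside members whose groups did not overlap, 2.57% of all genes were higher and 1.9% lower in miR-155-/- without overlap.

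Of 45 listed miR-155 targets 43 were tested (Spi1 and Ctla4 were not; the probe of Spi1 was well above background on 2 of 32 arrays). The median difference was -0.01 with all arrays and 0.01 without replicate 3, beside -0.03 and -0.01 over all genes, and 21 of 43 lay above 0. At an unadjusted p under 0.05 were 10 of 43 (23.3%), and 3 without replicate 3 (6.98%). Socs1, the suppressor of cytokine signalling, read -1.32, -1.58, -2.73 and -2.19 in wild type and -1.60, -1.66, -0.76 and -1.33 in miR-155-/-. The groups overlapped, and its difference of 0.61 ± 0.32 was not called (limma adjusted p = 0.341). Replicate 3 was the highest of all, and the other miR-155-/- kidneys had a mean of -1.53, within the wild type range.

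Other known targets differed by less or in the other direction. Inpp5d differed by 0.05 ± 0.22, Bach1, the repressor of haem oxygenase, by -0.38 ± 0.14, the myeloid transcription factor Cebpb by -0.32 ± 0.20, and the chromatin protein gene Jarid2 by -0.55 ± 0.24. Replicate 3 was the lowest kidney for each of these 4, and without it the values were 0.22, -0.22, -0.17 and -0.32. The death signalling genes Ripk1 and Fadd differed by 0.28 and 0.06, and the p53-induced Trp53inp1 by 0.42. Il13ra1, an interleukin receptor chain, was the only target whose groups did not overlap. It read -1.11, -1.14, -1.31 and -1.38 in wild type and -1.08, -0.99, -0.93 and -1.02 in miR-155-/-, a difference of 0.23 ± 0.10 (limma adjusted p = 0.317). Arl5b, a small GTPase gene, had the smallest p of the list, at 0.49 ± 0.16 (limma adjusted p = 0.298), and 0.33 without replicate 3.

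Injury and stress lists, except that of the endoplasmic reticulum stress response, had medians above 0 that were nearer to 0 when replicate 3 was left out. Of 21 tubular injury genes 17 lay above 0, with a median of 0.32 and 0.22 without replicate 3. Their mean level was 1.94, 1.82, 0.55 and 1.12 in wild type replicates 1 to 4, with replicates 3 and 4 the low ones. In miR-155-/- replicates 1 to 4 it was 1.58, 1.47, 1.78 and 1.88, within the wild type range. Havcr1 read 3.71, 3.15, 0.53 and 1.65 in wild type and 2.99, 2.63, 0.12 and 3.14 in miR-155-/-. Both groups spanned a wide range and overlapped, and the difference was -0.04 ± 0.64, which turned to 0.66 ± 0.60 without replicate 3. Lcn2 read 2.37, 1.90, 0.83 and 1.70 in wild type and 1.79, 1.95, 5.42 and 3.17 in miR-155-/-, a difference of 1.38 ± 0.68 that was 0.60 ± 0.63 without replicate 3 (limma adjusted p = 0.331 with all arrays). The urokinase receptor gene Plaur differed by 1.44 and by 0.88 without replicate 3, and the secreted Clu and Spp1 by 0.38 and 0.32.

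Of 30 p53 targets 22 lay above 0, with a median of 0.11 and 0.01 without replicate 3. Cdkn1a read 2.90, 3.22, 2.53 and 2.64 in wild type and 3.05, 2.94, 4.54 and 3.07 in miR-155-/-, so that replicate 3 alone stood out, and it differed by 0.58 ± 0.29 and by 0.20 ± 0.25 without it. Mdm2, which marks p53 for degradation, differed by 0.03 ± 0.14 and the stress hormone gene Gdf15 by 0.10 ± 0.21. Sesn2 differed by 0.52 and the TWEAK receptor gene Tnfrsf12a by 0.82 (0.38 and 0.43 without replicate 3). Of 25 cell death genes 18 lay above 0, with a median of 0.09 and of 0.05 without replicate 3. Bcl2l11 differed by 0.63 and by 0.31 without replicate 3.

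Of 17 AP-1 and immediate early genes 16 lay above 0, with a median of 0.78 and 6 at an unadjusted p under 0.05 (35.3%), and without replicate 3 the median was 0.38 and 0 were. Atf3 differed by 1.17 ± 0.47, Junb by 0.78 ± 0.31 and Fos by 0.63 ± 0.50 (0.89, 0.45 and 0.34 without replicate 3). Of 21 S phase and mitosis genes 19 lay above 0 (median 0.35, and 0.15 without replicate 3). Aurka differed by 0.85 and Ccne1 by 0.84 (0.53 and 0.32 without replicate 3). Of 16 Nrf2 and glutathione genes 12 lay above 0 (median 0.29, and 0.09 without replicate 3). Hmox1 of that list differed by 0.79 ± 0.33, and by 0.34 without replicate 3. In 2 members of that list the groups did not overlap, G6pdx, the first enzyme of the pentose phosphate pathway, and the cystine transporter Slc7a11. G6pdx differed by 0.41 ± 0.15 (0.18 without replicate 3) and Slc7a11 by 2.56 ± 1.0, and replicate 3 was the highest in both. Slc7a11 read -3.77 in replicate 3 and was dim on the other 7 arrays, at -10.65 to -7.62. The size of its difference is therefore uncertain. Of 16 genes of the endoplasmic reticulum stress response 8 lay above 0 (median 0.00, and 0.05 without replicate 3), with Trib3 at 0.89, and Psat1 of serine synthesis was lower by 0.54 without overlap and was not called.

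Inflammatory and interferon lists had medians above 0 that were larger when replicate 3 was left out. Of 16 interferon-stimulated genes 13 lay above 0 with all arrays (median 0.23) and 16 without replicate 3 (median 0.52), and 5 of 16 (31.2%) then had an unadjusted p under 0.05. Rsad2 (viperin) read 0.16, 0.33, -0.17 and 0.23 in wild type and 0.62, 0.53, 0.69 and 0.89 in miR-155-/-. Its groups did not overlap, and its difference of 0.54 ± 0.19 was not called (limma adjusted p = 0.306). Oasl1 differed by 1.16 ± 0.40 and by 0.77 without replicate 3. The mean over the 16 genes was -0.50 to 0.52 in wild type and 0.41 to 0.87 in miR-155-/- replicates 1, 2 and 4, and -0.30 in replicate 3. The log2 of their summed level was 4.45 to 5.50 in wild type and 5.39 to 5.85 in miR-155-/- replicates 1, 2 and 4. In replicate 3 that sum was 5.68, above the wild type range. The list's median difference was 0.26 in saline, -0.05 at 24 h and 0.57 at 72 h.

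Of 22 inflammatory genes 16 lay above 0 (median 0.22) and 19 without replicate 3 (median 0.39). Their mean level was -2.94 to -1.62 in wild type, -2.02 to -1.57 in miR-155-/- replicates 1, 2 and 4, and -2.09 in replicate 3. The log2 of their summed level was 3.94 to 4.93 in wild type and 4.53 to 4.81 in miR-155-/- replicates 1, 2 and 4. In replicate 3 that sum was 3.79, below the wild type range. Il1b differed by 1.0 ± 0.41 and by 0.82 without replicate 3. The acute phase gene Saa1 went the other way, at 0.48, 0.41, -0.06 and 0.15 in wild type and -0.61, -0.63, -1.86 and -0.24 in miR-155-/-. All miR-155-/- values lay below all wild type ones, and its difference of -1.08 ± 0.46 was not called (limma adjusted p = 0.315).

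Fatty acid oxidation, the main fuel pathway of the tubule, had a median below 0. Of 19 fatty acid oxidation genes 2 lay above 0 with all arrays and 0 without replicate 3, with medians of -0.24 and -0.22, and 8 (42.1%) and 4 (21.1%) had an unadjusted p under 0.05. Their mean level was 2.79, 2.54, 3.03 and 3.04 in wild type replicates 1 to 4, with replicates 3 and 4 the high ones. In miR-155-/- replicates 1 to 4 it was 2.34, 2.65, 2.17 and 2.57, so the groups overlapped. The fatty acid hydroxylase Cyp4a14 differed by -1.83 ± 0.70 and by -1.13 without replicate 3, and Cyp4a10 by -1.05 ± 0.32 and by -0.71. The groups overlapped in both genes. The list's median was -0.02 in saline, -0.06 at 24 h and -0.13 at 72 h. Of 16 oxidative phosphorylation genes 2 lay above 0, with a median of -0.04, with Sdha at -0.20 and Ndufa9 at -0.15. Of 17 cholesterol synthesis genes 12 lay above 0, and 15 without replicate 3 (medians 0.18 and 0.22), with 7 and then 5 at an unadjusted p under 0.05. The sterol oxidase Msmo1 read 2.29, 2.33, 1.77 and 1.78 in wild type and 2.50, 2.56, 3.37 and 2.38 in miR-155-/-, without overlap, and differed by 0.66 ± 0.19 (limma adjusted p = 0.277). Hmgcs1, the synthase of an early step of the pathway, went the other way, at -0.39 ± 0.14 with overlap (limma adjusted p = 0.306).

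Of 26 proximal tubule genes 20 lay below 0 with all arrays (median -0.22), and 13 lay above 0 without replicate 3 (median -0.00). The organic anion transporter Slc22a6 differed by -0.46 ± 0.13 and by -0.42 without replicate 3. Of 22 distal nephron genes 18 lay below 0 (median -0.42, and -0.08 without replicate 3). Egf, a growth factor of the distal tubule, read 2.30, 2.35, 3.35 and 2.95 in wild type and 1.20, 1.82, 2.06 and 1.64 in miR-155-/-. No value overlapped, with replicate 3 the highest of its group, and the difference of -1.06 ± 0.28 was 2.08-fold and not called (limma adjusted p = 0.254, and 0.284 without replicate 3). In the animals of 72 h Egf differed by -1.35 and was called (limma adjusted p = 0.0175), and in saline by 0.20. Umod, the most abundant urinary protein of the thick limb, differed by -0.83 with all arrays and by -0.31 without replicate 3.

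Markers of other cell types were read in the same way, and their part in the results above was not tested. For macrophages 4 of 14 lay above 0 with all arrays (median -0.23) and 12 without replicate 3 (0.28). The log2 of the summed level was 3.90 to 4.45 in wild type and 4.05 to 4.30 in miR-155-/- replicates 1, 2 and 4. In replicate 3 it was 4.24, within the wild type range. The mean log2 level of the markers was -3.20 in replicate 3, below the -2.20 to -1.34 of wild type. Csf1r, a receptor of the lineage, differed by -0.30 and by -0.08 without replicate 3, and Cd14 by 0.75 and by 0.18. For lymphocytes the medians were -0.17 and 0.16, for neutrophils 0.52 and 0.26, with S100a8 at 1.41 and 0.68, and for endothelium -0.01 and 0.10. Podocyte and fibroblast lists had medians of -0.06 and -0.05, and of 0.05 and -0.07 without replicate 3.

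Red blood cell genes were higher in 8 of 9 (median 2.77), with 7 (77.8%) at an unadjusted p under 0.05, and without replicate 3 the median was 1.05 and 1 was. Hba-a1 read -1.81, -3.94, -2.98 and -2.99 in wild type and -2.20, 0.17, 4.69 and -3.23 in miR-155-/-. Replicates 2 and 3 were the high ones, and replicates 1 and 4 lay within the wild type range. Epb42, a red cell membrane protein gene, did not overlap, at 0.85 ± 0.27, and at 0.61 without replicate 3. All 5 adipocyte genes were lower (median -2.40, and -2.67 without replicate 3). Cfd (adipsin) read 1.93, 1.47, 1.37 and -2.85 in wild type and -5.97, -3.46, -3.94 and -0.27 in miR-155-/-, so that 1 kidney of each group went against the rest. All 7 tested major urinary protein genes were below 0 (median -1.21, and -1.35). Mup20 was well above background on 3 of 4 wild type and 2 of 4 miR-155-/- arrays, and Mup17 on 3 and 1. Their mean level was -5.71, -7.17, -7.52 and -5.58 in wild type replicates 1 to 4 and -8.18 to -7.38 in miR-155-/-. Wild type replicates 1 and 4 were the high ones, and the groups overlapped. In saline the median difference of this list was 1.96. For 3 adrenal cortex genes the median was 0.08.

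**Figure D5:**
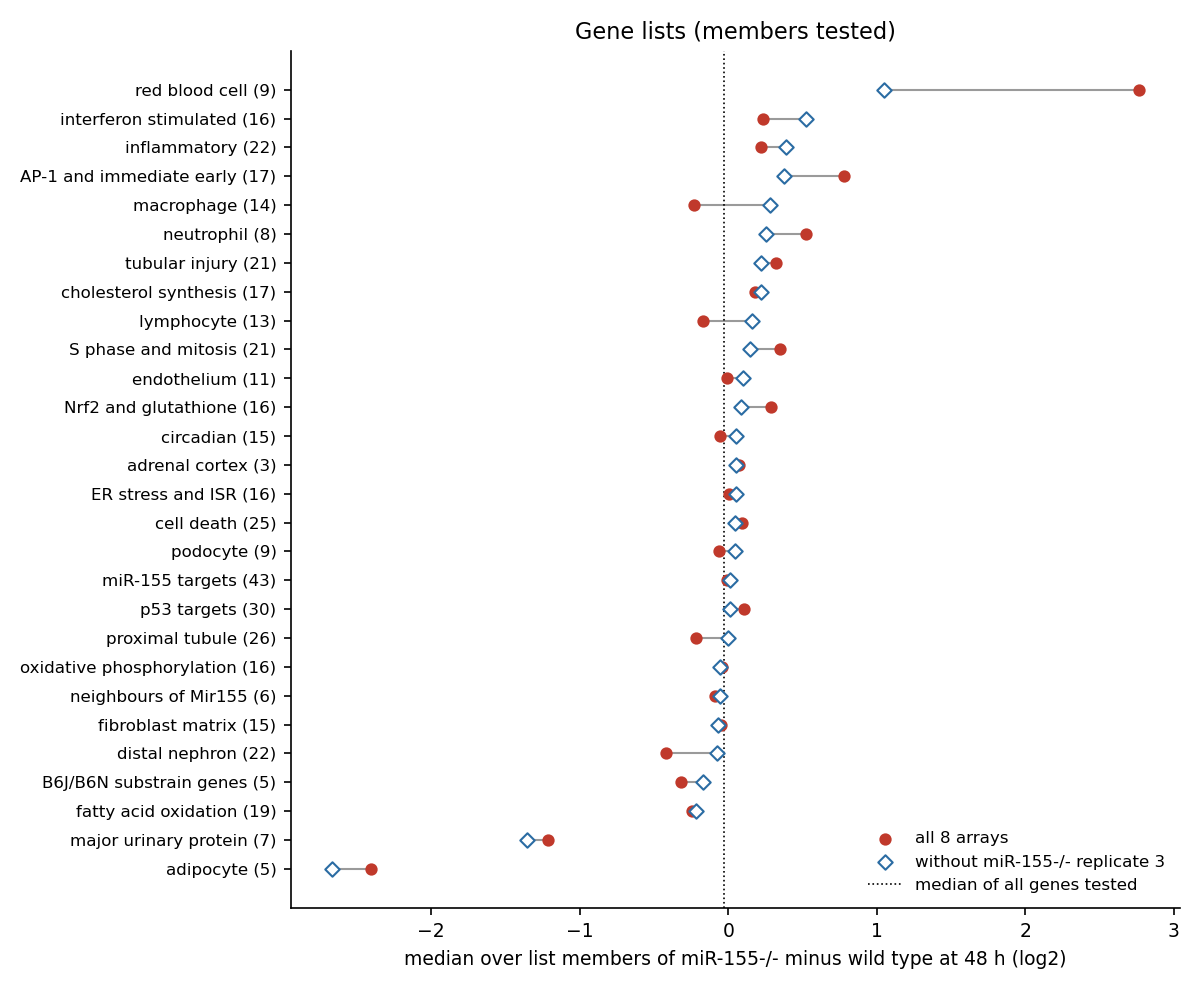
Median log2 difference at 48 h over the tested members of each gene list (number of members in brackets), with all 8 arrays (filled) and without miR-155-/- replicate 3 (open), and a dotted line at the median of all genes tested (-0.03). Red blood cell genes move from 2.77 to 1.05 and macrophage genes from -0.23 to 0.28 when replicate 3 is left out, while the miR-155 target median stays beside the line.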

How the data were processed

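The intensity of each spot was the processed signal, deposited as a linear value. Feature Extraction 10.7.3.1 (protocol GE1_107_Sep09, per the file headers) had subtracted background and spatial trends. The authors' deposited value table held the same intensity times 1 factor per array, with the 75th percentile at 999.3 to 1000.

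Outlier spots (71 to 179 on the 48 h arrays) were left out, spots of a probe averaged, and the brightest probe of a gene used. Symbols came through transcript accessions from RefSeq (GRCm38.p6), for 69.1% of 39429 probes. The arrays were designed on another assembly, so this table gave only names and neighbours. Testing required a probe well above background throughout at least 1 group of 4, and at least 3 values per group; 970 values were missing. The fit was limma 3.58.1 in R 4.3.3 (lmFit, eBayes with trend, 2-sided) on 8 group means of all 32 arrays, with 24 residual degrees of freedom (23 without replicate 3). It was tested on simulated arrays with independent errors. These held no divergent array and no slide effect, so the simulation cannot show how the fit behaves with either. The labels call the animals independent. The number of arrays limits the precision.

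The gene lists and the comparison were chosen with earlier results of these data known. Named were fixed injury, stress and target genes, the called genes with the largest change, those called at all times, and up to 4 called or 2 uncalled members per list with the smallest p. Alternatives were median and quantile scaling, normexp (offset 50) on the median signals, because the files hold no mean signal, the deposited value table, filters, probe means, array weights, slide, scan day and replicate blocks, the 48 h arrays alone, and each array left out. The replicate numbers did not pair the animals.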

Additional observations from a re-analysis of the deposited data

Results flagged for a closer look

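In groups of 4 the highest or lowest kidney was compared with its nearest neighbour over the range of the group, for 164 groups of named genes. Chance flags about 1 in 20 groups, and 14 of 164 (8.54%) stood apart, 9 of them through miR-155-/- replicate 3. That kidney was the lowest of its group for Havcr1 (0.12, next 2.63), Speer4e (-7.30, next -4.45) and Tmigd1 (3.58, next 4.04). It was the highest for the cell cycle genes Cdkn1a (4.54, next 3.07) and Ccne1 (-0.11, next -2.16), the TWEAK receptor gene Tnfrsf12a (5.77, next 4.33), Junb (-0.61, next -1.86), the stress pseudokinase gene Trib3 (2.07, next 0.35) and the clock repressor Nr1d1 (0.55, next -1.81).

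In other kidneys, Fadd was high in miR-155-/- replicate 4 (-0.85, next -0.97) and Entpd4 was low in miR-155-/- replicate 2 (4.12, next 4.44), both by small steps. Among wild type kidneys Psat1 was low in replicate 3 (2.80, next 2.94), Nr1d1 in replicate 1 (-2.39, next -1.95) and the adipocyte gene Cfd in replicate 4 (-2.85, next 1.37).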

How the results depend on the processing

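With all 8 arrays 22 genes and transcripts were called higher and 2 lower. The number called lower was 1 with median centring, 5 with quantile normalization, 4 with normexp, 1 with the scan day as a block, 1 without a mean-variance trend, and 1 with the replicate number as a block, where 19 were called higher. Same-numbered kidneys did not deviate together (correlations of -0.1122, -0.1789, -0.1577 and -0.0748), so the numbers do not pair the samples. The highest correlations of all pairs were those of kidneys on a shared slide. They were 0.32 for wild type replicate 4 with miR-155-/- replicate 2 and 0.23 for wild type replicate 3 with miR-155-/- replicate 4. The random slide block had a correlation of 0.24, and the main fit left the slide out. A replicate block on the 48 h arrays alone gave 0 and 0 by limma (615 at an unadjusted p under 0.05). The 48 h arrays alone gave 1 and 0, and 7 and 0 without replicate 3. Array weights gave 96 and 41, the slide as a fixed block 68 higher and as a random block 42 and 8. Chosen after seeing the data, the slide block without replicate 3 gave 59 higher and the weights without it 93 and 30. Leaving out 1 array at a time gave 14 to 32 higher and 0 to 12 lower, and 22 to 36 in all where replicate 3 was already left out. Against saline 0 genes differed in their genotype difference, 6 with the slide block and 0 to 2 with an array left out. The cause of these shifts was not tested. The 14 called genes with a symbol kept their direction in every setting run (74 values no longer passed, 300 did), but not their size. Tmigd1 lost its call in 16 of 27 settings and Gm10220 in 12 of 26. With the mean over probes Fam205a2 differed by 1.68, Speer4b by 2.25 and Gm10220, no longer called, by 1.55, and with normexp Speer4e, no longer called, by 2.26. Uncalled otherwise, Egf passed with normexp (-1.20), and Egf (-1.27), Slc22a6 (-0.56) and Msmo1 (0.53) passed with array weights, also without replicate 3 (-1.28, -0.56 and 0.52). Reversed were Havcr1 without replicate 3, and in the 48 h arrays alone without it (0.66), with array weights (0.89, and 0.93 without replicate 3), the slide as a fixed block (0.54, and 1.14) or random block (0.24), and without wild type replicate 1 or 2 (-0.62 to 0.66 over the 8 omissions); Ptpro without replicate 3 (0.11; -0.44 to 0.11 over the omissions), with weights (0.12, and 0.14) and with the slide block without replicate 3 (0.088); Mdm2 with quantile normalization (-0.0051), normexp (-0.17), and without wild type replicate 3 or 4 or miR-155-/- replicate 1 (-0.067 to 0.15 over the 8 omissions); Gdf15 with normexp (-0.13), without replicate 3 (-0.046) and without wild type replicate 3 or 4 (-0.075 to 0.27); Inpp5d without wild type replicate 3 or miR-155-/- replicate 1 (-0.056 to 0.22); Fadd without wild type replicate 1 (-0.021 to 0.13); Cyp21a1 without wild type replicate 3 (-0.094 to 0.20); and with normexp Lum (0.17), Mfap5 (0.20), Cd8a (0.84), Cd3g (0.79), Vwf (0.11), Mup20 (0.73) and Mup17 (0.57). Dim probes, such as Speer4e and Speer4b in wild type (above background on 2 of 4 arrays), limit the size of a fold change.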
